A study of Mus musculus with 6 samples.

Results

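The Zic genes encode zinc finger transcription factors of the cerebellar granule neuron lineage. The 4 Zic genes described here, Zic1, Zic2, Zic4 and Zic5, were listed by name out of 55341 gene symbols in the count tables. The rule uses no measured value, but it was written with earlier results of these data known. They were measured by poly(A)-selected RNA-seq in 6 libraries of mouse cerebellar granule neurons (CGNs). Of these, 3 libraries were labelled DMSO, the solvent control, and 3 were labelled GSK-126, a small molecule inhibitor of EZH2, the enzyme that trimethylates lysine 27 of histone H3 (H3K27me3). Each group carried the replicate numbers 1, 2 and 3. The labels gave neither dose nor time, and named the tissue as cerebellum, with CGNs named in the titles.

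No altered allele was named for any library. Per the study's methods, granule neuron precursors of CD1-IGS mice aged P6 to P8 were enriched on a Percoll gradient and plated, cytosine arabinoside was given to stop the division of non-neuronal cells in every culture, and inhibitor was added at DIV1 or DIV3 (days in vitro) before harvest at DIV5. A replicate was a culture of neurons from pooled cerebella of litters. The agent was therefore given to mixed cultures of pooled animals, and these data hold 1 time point of harvest.

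Zic proteins share an array of C2H2 zinc fingers that is related to the fingers of the GLI and GLIS factors. In the cerebellum they are known for roles in the granule cell precursors and in the maturing neurons, where ZIC1 and ZIC2 bind promoters and enhancers of maturation genes. Zic1 and Zic4 are a head-to-head gene pair, as are Zic2 and Zic5, and loss of ZIC1 and ZIC4 is linked to Dandy-Walker malformation of the cerebellum. Zic genes are also known to be expressed in the meninges.

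The pairs lie on different chromosomes (GRCm38, GENCODE M21). Zic1 (ENSMUSG00000032368.14) occupies chr9:91358058-91365810 on the reverse strand. Zic4 (ENSMUSG00000036972.14) occupies chr9:91362413-91389348 on the forward strand, so that the 2 gene bodies overlap, and their annotated starts are 3.4 kb apart. Zic2 (ENSMUSG00000061524.8) occupies chr14:122475435-122479852 on the forward strand. Zic5 (ENSMUSG00000041703.7) occupies chr14:122456795-122465677 on the reverse strand, and the starts of Zic2 and Zic5 are 9.76 kb apart with no overlap. All 4 are protein coding. Exons of Zic1 and Zic4 share 60 bases, or 1.05% of the merged exons of Zic1. Of the merged exons of Zic4, 5.11% lie opposite an exon of Zic1 or of Gm37477, an unconfirmed transcript inside Zic4. The strand setting of the counting was not given in the sources used here, so reads from these shared bases cannot be told apart between the genes.

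**Figure D1:**
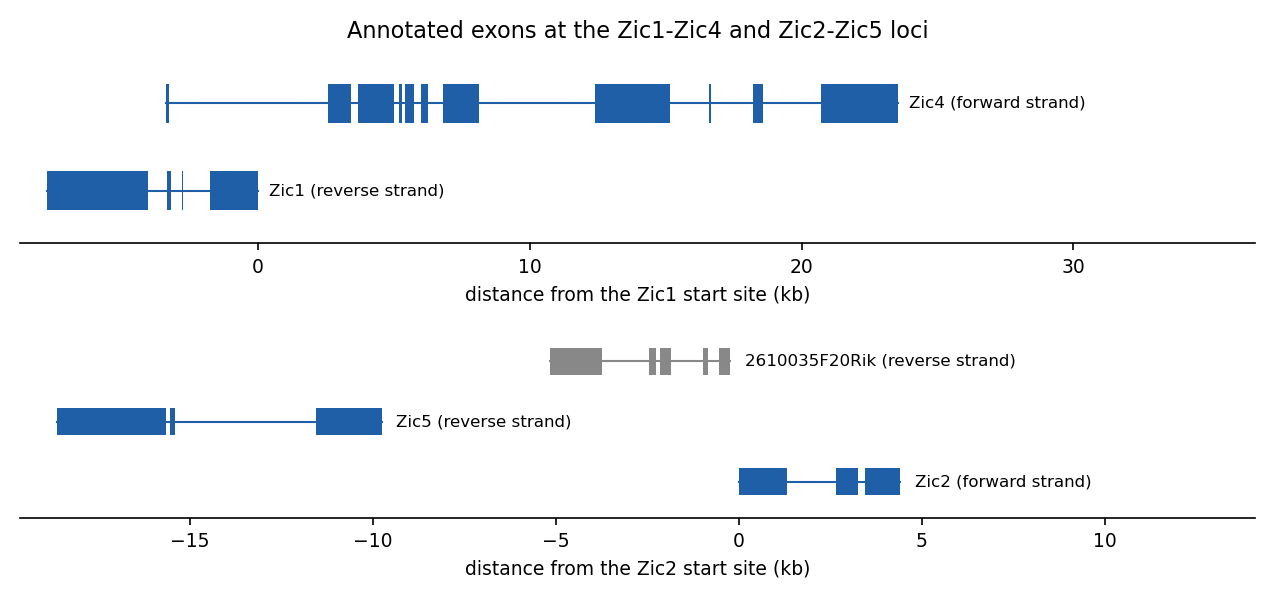
Annotated exons (boxes) and gene bodies (lines) by distance in kb from the Zic1 start (top) and from the Zic2 start (bottom), with the Zic genes in blue. Zic4 starts inside the body of Zic1, 3.4 kb from the Zic1 start, while Zic5 and Zic2 stand 9.76 kb apart with the noncoding gene 2610035F20Rik between them.

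Promoter sequences are shown because GSK-126 acts on a chromatin mark and because the 4 genes stood at lower levels together. The RefSeq promoter table (GRCm38.p6) held a row for 3 of the 4 genes, Zic1, Zic4 and Zic5. The windows run from 250 to 51 bases before the RefSeq start, 5′ to 3′ on the strand of the gene. Capitals mark the GC box GGGCGG, the CCAAT box CCAAT and the E-box CACGTG, searched on both strands.
Zic1, chr9:91365819-91366018, reverse strand: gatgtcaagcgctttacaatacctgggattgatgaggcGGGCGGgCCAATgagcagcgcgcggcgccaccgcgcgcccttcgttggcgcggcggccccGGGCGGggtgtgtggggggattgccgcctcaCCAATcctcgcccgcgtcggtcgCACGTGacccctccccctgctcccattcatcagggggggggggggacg
Zic5, chr14:122465709-122465908, reverse strand: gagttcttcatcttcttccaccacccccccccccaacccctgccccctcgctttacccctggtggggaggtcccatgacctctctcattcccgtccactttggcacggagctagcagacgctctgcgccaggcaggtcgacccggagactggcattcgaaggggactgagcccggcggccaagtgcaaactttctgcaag

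The Zic1 window, which lies in an intron of Zic4, held 24 CpG dinucleotides and 71.5% G and C, and 94.4% of 32851 promoter windows held fewer CpG. It contained 2 GC boxes, 2 CCAAT boxes and 1 E-box. Over all windows of this length, 24.6% held a GC box, 28.4% a CCAAT box and 4.34% an E-box. The Zic5 window held 10 CpG and 63.0% G and C, above the medians of 4 CpG and 51.5% over all windows, and none of these motifs. The RefSeq window of Zic4 lay wholly within exons of the longer GENCODE models, held 2 CpG and is not printed. None of the 3 windows held the letters TATAAA or CAGCAGG, the latter a core of the ZIC motif, which were found in 9.14% and 6.82% of all windows. These matches describe letters and not binding.

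Reads assigned to genes numbered 8058760 to 12047837 per library, and GSK-126 replicate 1 was the deepest. Levels are given as CPM, in which the counts of every library are scaled to the same total of reads assigned to genes, and a count of 3 in 1 library corresponded to 0.250 to 0.375 CPM. All 4 Zic genes passed the filter on low counts, together with 16343 genes in all. Counting error was 0.85% to 3.01% of a Zic level, against a coefficient of variation of 4.31% to 20.2% between replicates. Genes of a granule neuron list had reads in every library, with 12 of 12 passing the filter. This list also holds general neuronal genes such as Tubb3. Atoh1, the factor of dividing granule precursors, had 9 reads over all 6 libraries. The cultures also held markers of other cells. Summed levels of 10 astrocyte and Bergmann glia markers ran from 2761 to 7995 CPM in DMSO and from 2726 to 8272 CPM in GSK-126, and those of 10 fibroblast and meningeal markers from 7011 to 9050 CPM and from 9043 to 10091 CPM. The libraries were thus not of granule neurons alone.

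Under DMSO the 4 genes fell into 2 strata of abundance. Per kilobase of merged exon, Zic1 stood at 264 ± 35.1 CPM per kb (SD, n = 3) and Zic2 at 203 ± 33.7 CPM per kb, levels that differed by less than their summed spreads. Zic5 stood at 34.3 ± 1.48 CPM per kb and Zic4 at 33.3 ± 2.12 CPM per kb, also within their spread. By this measure Zic1 ranked 74 and Zic2 ranked 113 among the genes tested, with 99.5% and 99.3% of them at a lower level. Zic5 and Zic4 ranked 1437 and 1491. The order of the lower stratum depended on the length used, because Zic4 has 12 annotated transcripts. With the longest transcript as the length, Zic4 stood at 88.4 CPM per kb against 35.1 CPM per kb for Zic5, still below Zic1 at 269 CPM per kb and Zic2 at 240 CPM per kb.

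Zic1 was the highest and Zic2 the third of the 4 Zic genes and 19 other granule lineage factors that were tested, ranked by mean level per kb in DMSO. Between them stood Neurod1, a basic helix-loop-helix factor of differentiating granule neurons, at 260 ± 42 CPM per kb. Its level and that of Zic1 differed by less than either SD. Neurod2, of the same family, followed at 87.5 ± 10.7 CPM per kb. The nuclear factor I gene Nfix stood at 67.0 ± 1.02 CPM per kb, and Pax6, the paired-box factor of the lineage, at 15.1 ± 0.88 CPM per kb. Zic5 and Zic4 ranked 7 and 8 of 23.

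**Figure D2:**
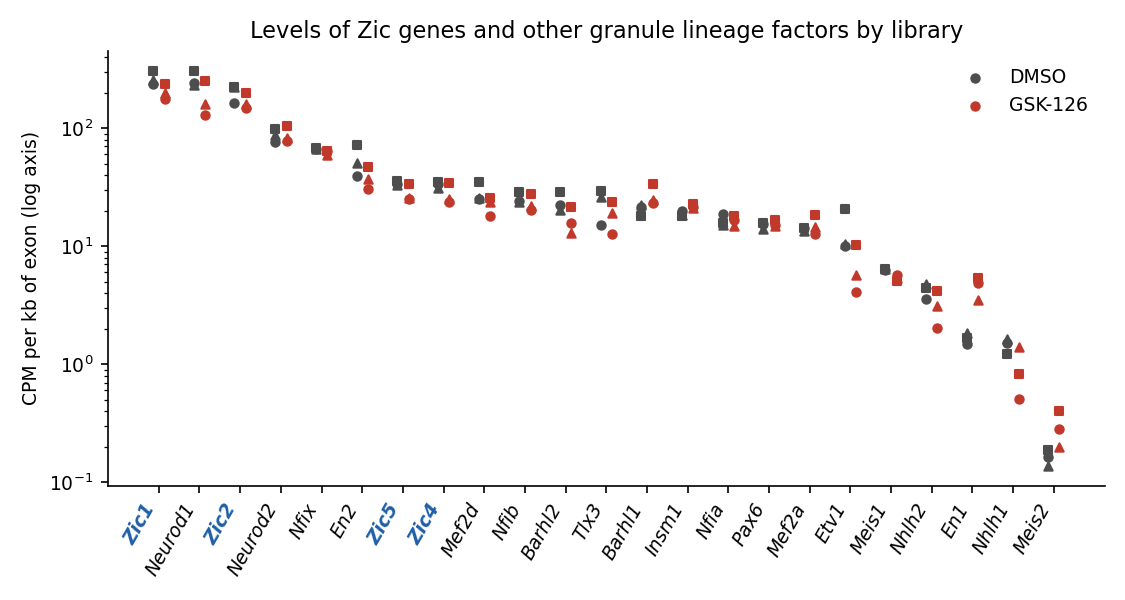
Level in CPM per kb of merged exon (log axis) of the 4 Zic genes (blue names) and 19 other granule lineage factors in each library, ordered by the DMSO mean, with DMSO in grey, GSK-126 in red, and circles, squares and triangles for replicates 1, 2 and 3. Zic1 and Zic2 stand with Neurod1 at the top, while Zic5 and Zic4 stand at ranks 7 and 8.

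Each of the 4 Zic genes was lower with GSK-126 than with DMSO in all 3 pairs of same-numbered libraries. The estimated differences were between 17.2% and 22.7%, and none passed an adjusted p of 0.05 in edgeR with the replicate number as a block, while Zic1 passed in DESeq2 and limma-voom with the block. A direction of lower in all 3 pairs was shown by 19.3% of all genes tested. Because bulk RNA was measured, fewer granule neurons in a culture and less Zic RNA per neuron cannot be told apart.

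Zic1, the most abundant of the 4, was counted at 1335, 1725 and 1457 CPM in DMSO replicates 1, 2 and 3, and at 1011, 1353 and 1132 CPM in GSK-126 replicates 1, 2 and 3. The groups overlapped only by GSK-126 replicate 2, which lay just above DMSO replicate 1. Means were 1506 ± 200 CPM in DMSO and 1165 ± 173 CPM in GSK-126 (SD, n = 3). Within pairs the log2 ratios were close to each other, at -0.40, -0.35 and -0.36. With the replicate number as a block, edgeR's quasi-likelihood test gave a log2 fold change of -0.37 with a SE of 0.093 (95% interval -0.58 to -0.17), or 22.7% lower, with an unadjusted p = 0.0021 and a Benjamini-Hochberg adjusted p = 0.0535. Without the replicate block the fold change was again -0.37, with a SE of 0.18 and an adjusted p = 0.825.

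The call for Zic1 lay at the threshold and depended on the tool. With the block, DESeq2 gave -0.37 with an adjusted p = 0.0183, limma-voom gave -0.37 with an adjusted p = 0.0343, and edgeR with no filter on low counts gave -0.36 with an adjusted p = 0.0022. Leaving out replicate number 1 brought the edgeR adjusted p to 0.0405, and leaving out number 2 or number 3 to 0.305 or 0.349.

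Zic2, a factor of neural tube and forebrain development as well as of granule neurons, was counted at 474, 646 and 638 CPM in DMSO and at 425, 567 and 459 CPM in GSK-126. Replicate 1 was the lowest library of each group, and the groups overlapped. Means were 586 ± 97.1 CPM and 484 ± 74.1 CPM. The fold change was -0.27 (SE 0.105, 95% interval -0.50 to -0.04) with edgeR's quasi-likelihood test and the block, with an adjusted p = 0.212, and -0.28 without the block, with an adjusted p = 0.841. Pair 3 had the widest gap, at a log2 ratio of -0.48 against -0.16 and -0.19, and without replicate number 3 the fold change was -0.17.

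Zic4, the partner of Zic1, was counted at 349, 362 and 320 CPM in DMSO and at 245, 352 and 261 CPM in GSK-126. The pairs were uneven, since replicate 2 was nearly level between the groups while replicates 1 and 3 were lower with GSK-126. Means were 344 ± 21.9 CPM and 286 ± 57.8 CPM. The log2 ratios within pairs were -0.51, -0.04 and -0.29. The fold change was -0.28 (SE 0.113, 95% interval -0.53 to -0.03), with an edgeR adjusted p = 0.230 with the block and 0.841 without the block. Leaving out replicate number 1 brought the fold change to -0.17.

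Zic5, the partner of Zic2 and the gene with the fewest reads of the 4, was counted at 165, 176 and 162 CPM in DMSO and at 124, 164 and 125 CPM in GSK-126. Again replicate 2 was the only GSK-126 library within the range of the controls. Means were 167 ± 7.22 CPM and 138 ± 22.9 CPM. The fold change was -0.29 (SE 0.110, 95% interval -0.53 to -0.05), with an edgeR adjusted p = 0.202 with the block and 0.825 without the block.

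**Figure D3:**
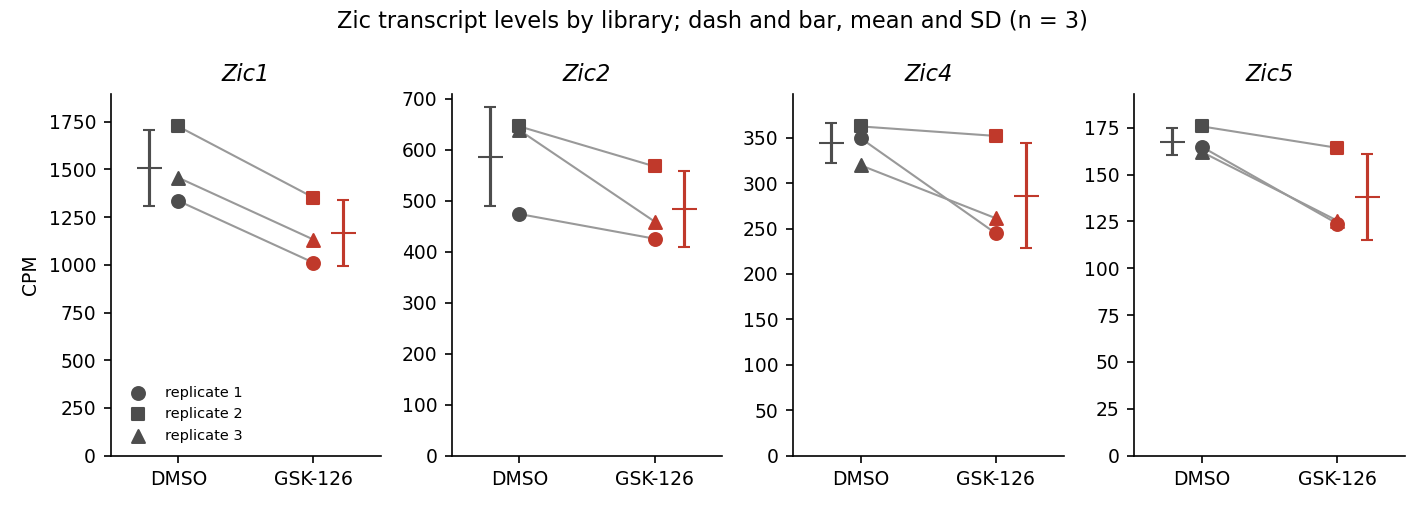
CPM of each Zic gene in each library (points, with lines joining libraries of the same replicate number), and the mean with its SD for 3 libraries (dash and bar), with a separate axis from 0 for each gene. Every line runs downward from DMSO to GSK-126, and replicate 2 holds the highest level of each gene in both groups.

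Across all genes tested, 232 fell (1.42%) and 365 rose (2.23%) with GSK-126 at an adjusted p under 0.05 with the block, and the Zic genes gave 0 of 4 in either direction although all 4 had an unadjusted p between 0.0021 and 0.0294. An unadjusted p under 0.05 was found for 2735 genes (16.7%) in that fit. With DESeq2 and with limma-voom, 1 of 4 was called lower, Zic1. Without the replicate block 0 of 16343 genes (0%) were called in either direction, with 981 genes at an unadjusted p under 0.05. The median log2 fold change was -0.29 over the 4 Zic genes and -0.0020 over all genes tested. Smaller, that is more negative, fold changes than those of Zic1, Zic2, Zic4 and Zic5 were found for 9.37%, 15.3%, 14.6% and 13.9% of genes. In 5.44% of all genes every GSK-126 library lay below every DMSO library, and 0 of the 4 Zic genes were among them. Under every alternative run, the 4 fold changes kept their direction and lay between -0.49 and -0.17.

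**Figure D4:**
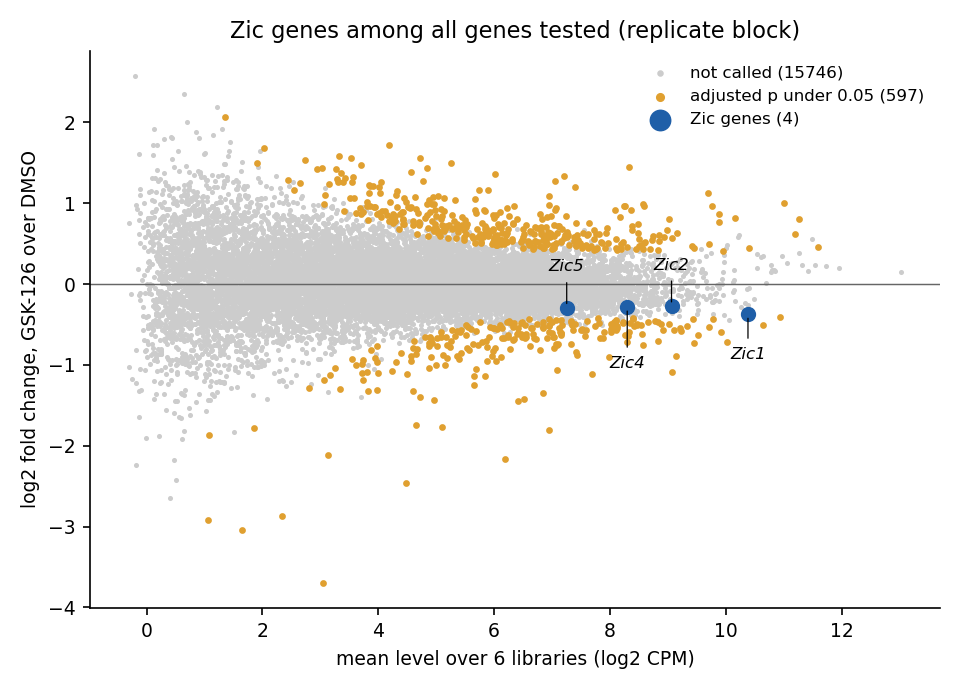
Log2 fold change of GSK-126 over DMSO with the replicate block against mean level in log2 CPM for 16343 genes, with genes at an adjusted p under 0.05 in orange and the 4 Zic genes in blue. The Zic genes lie below 0, from -0.37 to -0.27, among the abundant genes. Zic1, at an edgeR adjusted p = 0.0535, lies nearest the threshold of the 4, and Zic2, Zic4 and Zic5 are at 0.202 to 0.230.

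Together the 4 genes took 0.235%, 0.289% and 0.258% of gene counts in DMSO replicates 1, 2 and 3, and 0.180%, 0.241% and 0.196% in GSK-126. The balance within the linked pairs of genes did not separate the groups. The ratio of Zic1 to Zic4 counts was 3.82, 4.76 and 4.56 in DMSO and 4.13, 3.84 and 4.33 in GSK-126. The ratio of Zic2 to Zic5 counts was 2.88, 3.68 and 3.94 in DMSO and 3.44, 3.45 and 3.66 in GSK-126. As a description over 6 libraries that share preparation and treatment, Pearson's r of log2 CPM was highest between Zic4 and Zic5, at 0.981, and lowest between Zic2 and Zic4, at 0.723. It was 0.879 for the linked genes Zic1 and Zic4 and 0.802 for Zic2 and Zic5, so that linked genes were not the most alike.

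The genes around the pairs had few reads. Of 11 other annotated genes that overlap a Zic gene or start within 50 kb of one, 8 did not pass the filter and had 1 to 55 reads over all libraries (A730094K22Rik, Gm10837, Gm18143, Gm28652, Gm29478, Gm37040, Gm37457 and Gm9399). The exception in level was 2610035F20Rik, a noncoding transcript that starts 0.24 kb from Zic2 on the opposite strand, with 344, 357 and 326 reads in DMSO and 459, 264 and 266 reads in GSK-126. Its mean level was 40.9 ± 3.25 CPM in DMSO and 33.4 ± 4.21 CPM in GSK-126, lower in 3 of 3 pairs, and its fold change of -0.29 (SE 0.141, edgeR adjusted p = 0.330) had the size of those of its neighbours Zic2 and Zic5. Gm37477, inside Zic4, gave -0.12 with an edgeR adjusted p = 0.870. Gm5089, whose symbol is carried by 2 gene identifiers, gave -0.07 with an edgeR adjusted p = 0.912.

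The GLI and GLIS genes, which encode the closest zinc finger relatives, had 4 of 6 members tested, with 0 called and 0 at an unadjusted p under 0.05 in edgeR. Gli1, Gli2 and Gli3 are the transcriptional effectors of Sonic hedgehog signalling, the mitogen of granule precursors. Gli1 had 17 reads over all libraries. Gli2 stood at 13.4 ± 1.98 CPM in DMSO and 13.0 ± 5.06 CPM in GSK-126, and Gli3 at 26.7 ± 10.9 CPM and 29.7 ± 11.2 CPM. The median fold change of the 4 tested was 0.10.

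Among the 19 other granule lineage factors tested, 4 fell and 1 rose with the block, against 1.42% and 2.23% of all genes, and 0 were called without the block. Their median fold change was -0.13, and 12 of 19 were below 0. Etv1, an ETS factor of maturing granule neurons, stood at 182 ± 78.5 CPM in DMSO and 88.9 ± 42.1 CPM in GSK-126 and fell by 1.06 as a log2 fold change, with a SE of 0.116 and an edgeR adjusted p = 0.0014. Neurod1 fell by 0.58 (SE 0.121, edgeR adjusted p = 0.0265), En2, a homeobox factor of the midbrain and hindbrain, by 0.49 (adjusted p = 0.0290) and Barhl2, a homeobox factor, by 0.53 (adjusted p = 0.0400). En1, the related engrailed gene, rose by 1.43 (SE 0.262, edgeR adjusted p = 0.0139) from 4.38 ± 0.461 CPM to 12 ± 2.47 CPM.

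Some factors of the lineage had fold changes near 0. Neurod2 stood at 275 ± 33.7 CPM in DMSO and 277 ± 46.3 CPM in GSK-126, a fold change of 0.00 (95% interval -0.22 to 0.23), and Pax6 at 176 ± 10.3 CPM and 181 ± 11 CPM, a fold change of 0.04 (95% interval -0.18 to 0.27). The Zic intervals overlap those of Neurod2 and Pax6, and the difference between these genes was not tested. Neurod1 had a fold change larger in size than that of Zic1, at a like level per kb.

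**Figure D5:**
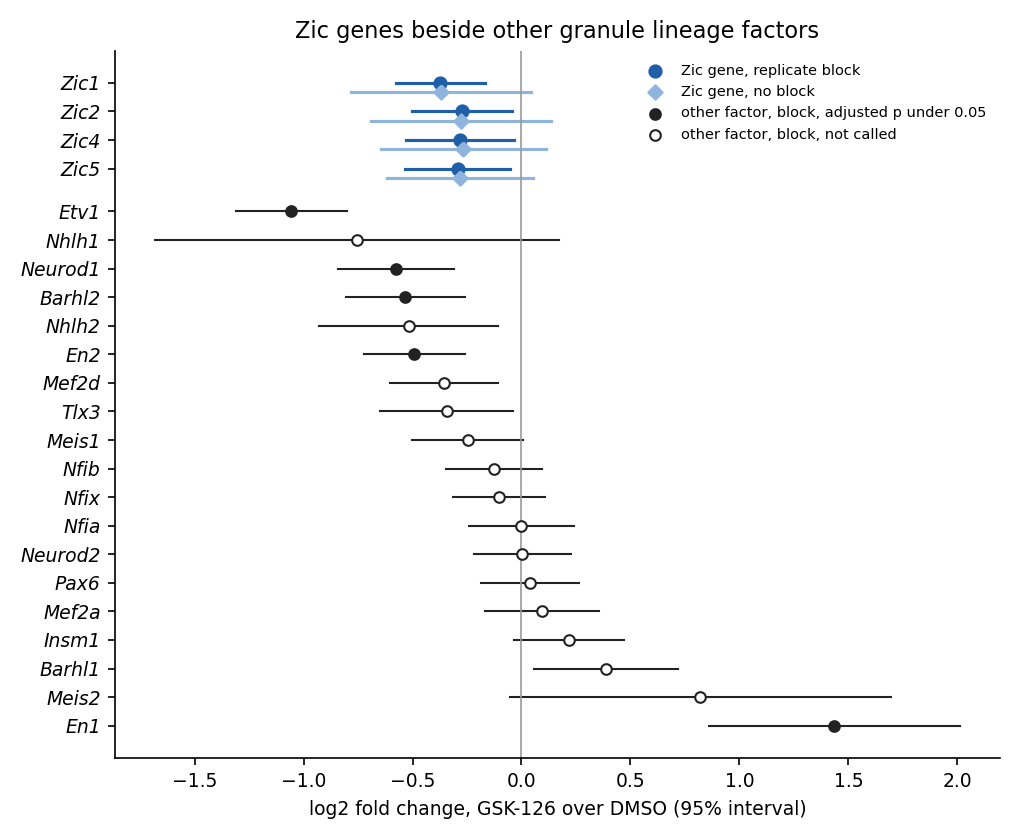
Log2 fold change of GSK-126 over DMSO with its 95% interval for the 4 Zic genes with the replicate block (dark blue) and without it (light blue), and for 19 other granule lineage factors with the block (filled where the adjusted p was under 0.05). The Zic intervals exclude 0 with the block, narrowly for Zic2, Zic4 and Zic5, and include it without. Etv1, Neurod1, Barhl2 and En2, all called, lie further below 0 than the Zic genes. Nhlh1 and Nhlh2 also lie further below 0 and were not called, and Neurod2 and Pax6 lie at 0.

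Of the 12 genes on the granule neuron list, 7 fell and 0 rose with the block, against 1.42% and 2.23% of all genes. Their median fold change was -0.55. The other 5 had fold changes at or above 0 and were not called. Of these Barhl1, a homeobox factor, stood at 0.39 (95% interval 0.06 to 0.72), Tubb3, a neuronal tubulin, at 0.36 (0.09 to 0.63) and Slc17a6, a second vesicular glutamate transporter, at 0.29 (-0.0045 to 0.59), each higher in 3 of 3 pairs. Slc17a7, a vesicular glutamate transporter, fell by 2.16 and Gabra6, the granule neuron GABA-A receptor subunit, fell by 1.42, each with an edgeR adjusted p = 0.00034. Snap25, a SNARE protein of synaptic vesicle release, fell by 1.09 (adjusted p = 0.00072) and Cbln3, a cerebellin, by 1.45 (adjusted p = 0.00083). All 4 of these fold changes were larger in size than that of any Zic gene. Summed over the list, the level was 3060 to 5326 CPM in DMSO and 2070 to 3626 CPM in GSK-126, and replicate 2 was the highest library of each group, as for the Zic genes.

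Markers of other cells differed between libraries and groups as well. The astrocyte list was lowest in replicate 2 of each group, where the Zic levels were highest, and 1 of its 10 genes was called, with Gdf10 higher by 0.94 (edgeR adjusted p = 0.0459). The median fold change of the list was 0.02, its summed level was higher with GSK-126 in 1 of 3 pairs, and Fabp7 (-0.37), Slc1a3 (-0.23) and Aqp4 (-0.21) were lower in 3 of 3 pairs without being called. Among 10 fibroblast and meningeal genes Col1a1, a collagen chain, rose by 0.46 (edgeR adjusted p = 0.0359), and the summed level of the list was higher with GSK-126 in 3 of 3 pairs. Among 8 endothelial and mural genes tested, 3 rose, Flt1 by 1.33, Pdgfrb by 0.63 and Acta2 by 0.67, against 2.23% of all genes. Cdh5, an endothelial cadherin, stood at -0.30 (95% interval -0.58 to -0.03) and Kdr, a VEGF receptor, at -0.01, neither called. The summed level of the endothelial and mural list was 488 to 755 CPM in DMSO and 836 to 1043 CPM in GSK-126, with no overlap. Of 10 oligodendrocyte lineage genes, 1 rose and 0 fell. Cspg4, of oligodendrocyte precursors and pericytes, rose by 0.89 (edgeR adjusted p = 0.0085). The median of the list was 0.17, with 4 of 10 below 0, among them Pdgfra at -0.21. Of 9 microglial genes tested, 2 rose, C1qb by 0.73 and Cd68 by 0.50, and 0 fell. The median of that list was 0.30, with Aif1 at -0.08 and Cx3cr1 at -0.02, and Trem2 was at 0 in every library. Of all genes, 2.23% rose and 1.42% fell.

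Of 10 GABAergic and Purkinje genes tested, Slc32a1, the vesicular GABA transporter, fell by 0.58, and Skor2, on the same list, was at 0 in every library. Of 6 unipolar brush cell genes, Eomes fell by 1.12. Of 10 cell cycle genes 0 were called in edgeR with the block and 1 had an unadjusted p under 0.05, with Mki67 at 62.5 to 116 CPM in DMSO and 69.4 to 119 CPM in GSK-126. Without the block 0 genes were called in every one of these lists. The part of cell composition in the lower Zic levels was not tested.

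The study listed 746 genes whose promoters lose H3K27me3 and gain ZIC1/2 binding as the cerebellum matures, from chromatin of other samples. None of the 4 Zic genes is on it. Of these, 674 were tested, of which 63 fell (9.35%) and 22 rose (3.26%) with the block, against 1.42% and 2.23% of all genes, and 0 were called without the block. The median fold change of the 674 was -0.08, with 391 below 0. Of the granule neuron list above, Slc17a7 and Rbfox3, a splicing factor of neurons, are also among the 746 genes and fell. Neurod2 is among them too, with a fold change of 0.00. These counts describe the list and no test of the set was made.

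The genes most like each Zic gene, up to 3, were taken by Pearson's r of log2 CPM over the 6 libraries among all genes tested, a description that a choice among so many genes makes high. Among the closest to Zic1 were Ackr1, an atypical chemokine receptor, at r = 0.998, and Slitrk1, a synaptic adhesion protein, at 0.996. Ackr1 fell by 0.84 (edgeR adjusted p = 0.0025) and Slitrk1 by 1.07 (edgeR adjusted p = 0.0092) with the block.

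The closest to Zic2 were Ncdn and the transcript 1700030C12Rik, each at 0.992, and Zfp954 at 0.991. The closest to Zic4 were Rap1gds1 at 0.997, and Gprasp1 and Gm43032, each at 0.995. The closest to Zic5 were the antisense transcript Gm16054 at 0.993, and Klhl33 and Eif4a2, each at 0.991. None of these 9 genes was called in edgeR with the block, and their fold changes ran from -0.64 to -0.19.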

How the data were processed

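Raw read counts per gene symbol were deposited for each library. Per the labels and the submitters' processing notes, poly(A)-enriched RNA was sequenced as paired reads of 150 bases, trimmed with Trimmomatic 0.38, aligned to mm10 with STAR 2.7.2b, and the authors counted reads over exons with HTSeq. The strand setting was not given in the sources used here. The 5 summary rows were left out. Reads with no feature made up 44.8% to 46.7% of each table, reads not uniquely aligned 9.54% to 10.4%, reads not aligned 1.74% to 5.03%, ambiguous reads 0.913% to 1.11% and reads of low quality 0.0812% to 0.172%.

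The members and gene lists were chosen with earlier results of these data known. Counts were tested with edgeR 4.0.16 in R 4.3.3 (quasi-likelihood test, filterByExpr by group, TMM factors of 0.994 to 1.01) with treatment and the replicate number as terms, over all 6 libraries, with Benjamini-Hochberg adjustment over 16343 genes and a threshold of 0.05. The replicate block is part of the rule for this comparison. Same-numbered libraries deviated together from their group means, with correlations of 0.35, 0.50 and 0.52. Libraries of unlike number gave -0.41 to -0.01, which is no separate evidence, because deviations from a group mean cancel within the group. The libraries were taken as paired, although the labels do not say what a number marks. With the block, the p-values measure the spread of the treatment difference between the pairs of cultures. Without the block they measure the spread between these cultures. No 2 libraries of a group agreed within sampling noise. DESeq2 1.42.0 and limma 3.58.1 were alternatives. The fit was tested on simulated data.

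CPM used the summed counts of the genes that passed the filter, multiplied by the TMM factor of each library. Lengths were merged GENCODE M21 exons, matched by symbol, and 108 symbols were shared by more than 1 gene identifier. Genes named were the members, annotated genes overlapping them or starting within 50 kb, up to 4 called genes per list by smallest p, and the 3 genes most correlated with each member, of which 1 is not reported here. Gli1 to Gli3, Atoh1, Mki67, Neurod2, Pax6, Nfix, Rbfox3, Barhl1, Tubb3, Slc17a6, Fabp7, Slc1a3, Aqp4, Cdh5, Kdr and markers at 0 were named after their values were seen. The same holds for Pdgfra, Aif1, Cx3cr1, Nhlh1 and Nhlh2, and for Barhl2, which was called but falls outside the limit of 4 for its list.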

Additional observations from a re-analysis of the deposited data

How the results depend on the processing

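No Zic fold change changed sign under any alternative run. Zic1 passed the threshold with no filter on low counts (-0.36), with DESeq2 and the replicate block (-0.37), with limma-voom and the replicate block (-0.37) and without replicate number 1 (-0.36), so that 1 Zic gene was called lower in each of these and 0 in the others. Zic2, Zic4 and Zic5 passed in none. Leaving out 1 replicate number gave -0.37 to -0.36 for Zic1, -0.33 to -0.17 for Zic2, -0.39 to -0.17 for Zic4 and -0.37 to -0.23 for Zic5, and 0 to 1 Zic genes called lower. Leaving out single libraries without the block gave -0.49 to -0.25, -0.41 to -0.19, -0.44 to -0.17 and -0.43 to -0.21.

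Over all genes, 428 were called lower and 708 higher with no filter, against 232 and 365, and the cause was not tested. Without the replicate block the counts were 0 and 0, with a biological coefficient of variation of 0.243 against 0.142 with it. The counts ranged from 53 to 308 lower and 125 to 396 higher without a replicate number, and were 0 without any 1 library and the block. With the longest transcript as the length, Zic2 stood at 240 and Zic4 at 88.4 CPM per kb in DMSO.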
